A study of Arabidopsis thaliana with 8 samples.

Results

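The comparison described here set wild-type Col-0 seedlings treated with salicylic acid (SA) against Col-0 seedlings kept in water, across all probe sets of the Affymetrix ATH1 array. It took 4 of the 8 arrays of the study: 2 arrays of Col-0 SA and 2 arrays of Col-0 water. Of 22810 rows in the deposited table, 64 belonged to control probe sets and the other 22746 were tested. A probe set was given a gene where the platform annotation listed exactly 1, which held for 13513 probe sets and gave 13355 genes. Where several such probe sets read a gene, that of the greatest average signal across the 8 arrays stood for it.

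Both Col-0 groups were 2 weeks old, grown in MS medium, and differed in what replaced that medium for the last 24 h in light: 2 mM SA in the tested seedlings and water in the controls. RNA came from complete seedlings, so roots and green tissue were read together. The labels give each array as a biological replicate. The p-values here set the difference of the group means against the spread between replicates, pooled over all 8 arrays and moderated across probe sets. The other 4 arrays, labelled npr1-1 water and npr1-1 SA, npr1-1 being a mutant impaired in SA signalling, were used to estimate that spread and, once below, to set the largest changes beside them.

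SA is a plant hormone of defence against pathogens that live on living tissue. Free SA is held in check by enzymes that attach glucose, a methyl group or an amino acid to it, and applied SA is met by the same enzymes. Plants with high SA are known for redox changes, for raised defence and secretion genes and for reduced growth, and SA at millimolar doses is also known to act on mitochondrial respiration.

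Values are the deposited log2 expression values, on which a step of 1 is a doubling. They compare arrays for 1 probe set, not different genes with each other, and the median over all probe sets was 1.34 in SA seedlings and 1.38 in water seedlings. In bulk tissue, fewer cells of a type and less RNA per cell cannot be told apart. The 2 SA arrays correlated at r = 0.994 and the 2 water arrays at r = 0.996 across probe sets, while an SA and a water array correlated at 0.965 to 0.966.

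Several control probe sets moved with the treatment. The 3′ minus 5′ difference of actin, a measure of how far the labelled RNA reaches toward the 5′ end, was 5.6 and 4.4 on the SA arrays, against 4.00 and 3.32 on the water arrays. For GAPDH it was 1.46 and 0.876 against 0.687 and 0.579, and for ubiquitin 1.55 and 1.38 against 0.984 and 1.08. The added bacterial control transcripts dap, lys, phe and thr, read at their 3′ probe sets, were higher on both SA arrays by 1.18 to 1.52. The further controls bioB, bioC and cre were higher by 0.52, 0.72 and 0.30, and the probe set of 25S ribosomal RNA was lower by 0.67. Their part in the results was not tested. Since the values are scaled on the bulk of probe sets, each change below is relative to that bulk. Of the listed tissue markers, LHCB4.1 of green tissue was read well above the array median in both groups (7.59 and 7.88 after SA, 8.96 and 9.06 in water), as was PYK10 of roots (4.83 and 4.97 against 7.49 and 7.71). EXPA7 of root hairs lay under the array median in both groups, FMA (FAMA) of guard cells lay at 1.25 and 1.78 against 1.90 and 2.29, and no flower, seed or vascular marker was among the 13355 genes.

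Many transcripts changed after SA, in both directions. Of the 13355 genes, 1158 were higher after SA (8.67%) and 1509 were lower (11.3%) at an adjusted p under 0.05 by limma, and 10688 passed in neither direction. The excess of falls depended on the scaling, with 1336 genes higher and 1375 lower where each array was centred on its median, and 1361 and 1396 after quantile normalization. Over all probe sets the counts were 2304 higher (10.1%) and 3038 lower (13.4%). In every called gene the 2 SA arrays lay both above or both below the 2 water arrays. The smallest called rise was 0.35 and the smallest called fall was 0.34 in size. Changes of at least 1 on the log2 scale, a doubling or halving, were found for 284 genes upward (2.13%) and 467 downward (3.5%). Many calls cannot be described by gene, since of the 5342 called probe sets 2661 had no single gene in the annotation.

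**Figure D1:**
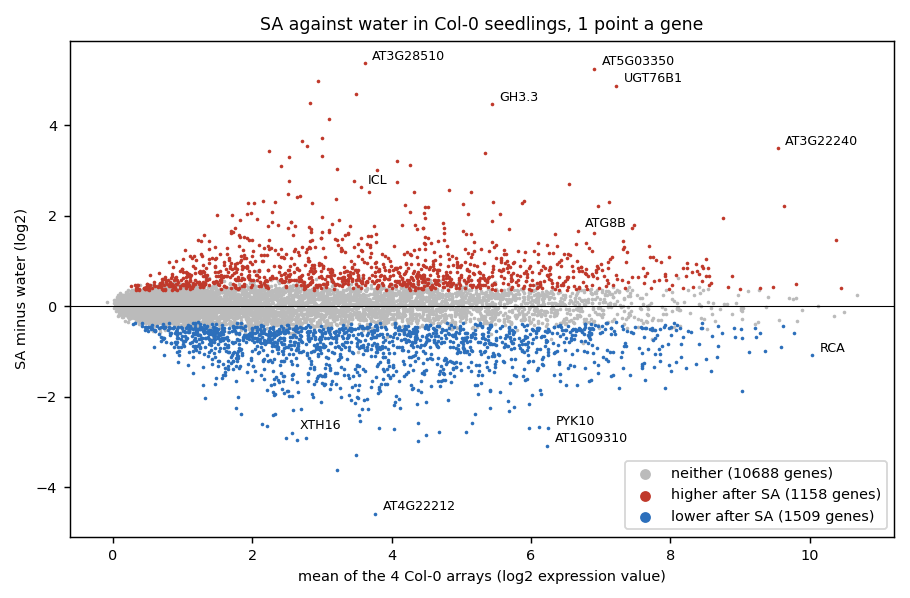
Each point is 1 of 13355 genes, with the mean of the 4 Col-0 arrays on the x axis and SA minus water on the y axis, both in log2 units. The 1158 genes in red were higher and the 1509 in blue lower after SA, and the largest rises exceeded the largest falls in size.

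At the stricter size of 2 or more on the log2 scale the counts were nearly even, with 58 genes upward (0.434%) and 53 downward (0.397%). The 58 risers had a median of 5.30 after SA against 2.16 in water, and 23 of them lay below the median of all values (1.36) in water. The 53 fallers ran the other way, with a median of 2.53 after SA against 5.10 in water, and 11 of them lay below the overall median after SA and none in water. Such levels depend on the probes as well as on the transcripts. Only 10 of the 58 and 10 of the 53 carry a gene name beyond a locus number. Most of the largest changes can thus be given by locus alone. Of all 13355 genes 1557 carry such a name. Most gene families below were gathered by symbol or synonym, so their counts leave out members without a matching name.

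The largest rise was that of AT3G28510, at 6.43 and 6.16 on the SA arrays against 0.66 and 1.2 on the water arrays. AT5G03350 followed, with 9.61 and 9.45 after SA against 4.47 and 4.1 in water. For both loci the gap between the groups was several times the gap between replicates. SA minus water was 5.37 ± 0.18 for AT3G28510 (SE, adjusted p = 5.49e-09 by limma) and 5.25 ± 0.15 for AT5G03350 (adjusted p = 2.08e-09). AT3G29970 rose by 4.98, AT2G30660 by 4.69, AT5G45180 by 4.50 and AT1G19960 by 4.14, and in all 4 the water arrays lay at or below 1.27. AT3G11370, AT5G41280 and AT4G10270 rose by 3.71, 3.66 and 3.54. AT3G22240 stood at 11.42 and 11.17 after SA against 7.87 and 7.72 in water.

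The deepest fall was that of AT4G22212, at 1.89 and 1.06 on the SA arrays against 6.01 and 6.11 on the water arrays, a change of -4.59 ± 0.23 (SE, adjusted p = 1.12e-07 by limma). AT1G29660 stood at 1.40 and 1.42 after SA against 5.10 and 4.96 in water. Both ended near the array median and their groups lay far apart. AT2G18210 fell by 3.29, AT1G09310 by 3.08, AT2G10940 by 2.97 and AT4G22610 by 2.95. AT1G09310 stood at 4.72 and 4.67 after SA against 7.80 and 7.75 in water. AT5G38700, AT2G29290, AT5G28630, AT4G23670 and AT5G19890 fell by 2.77 to 2.92, and XTH16, described with its family below, by 2.80.

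**Figure D2:**
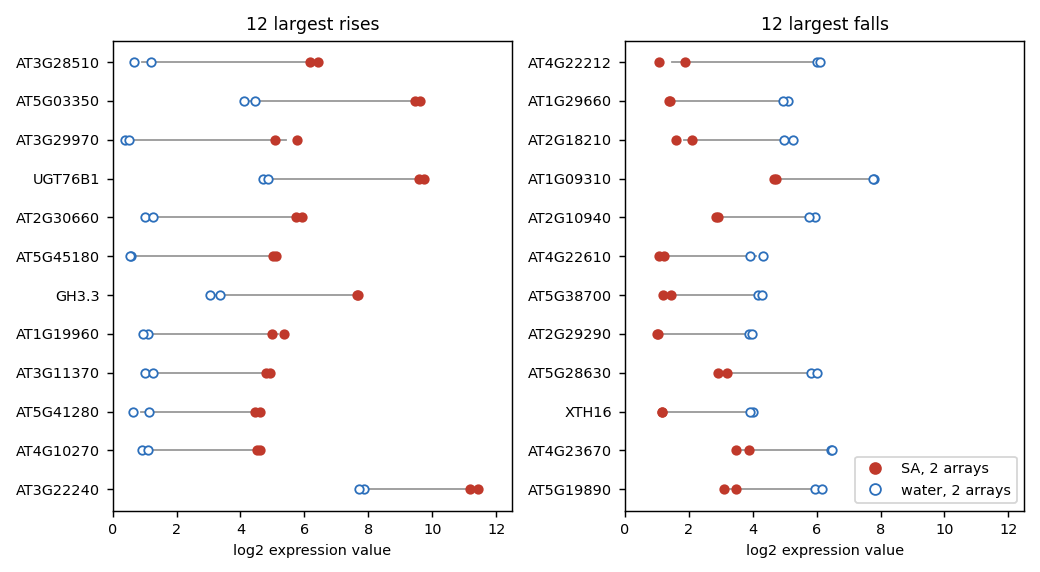
The 12 genes with the largest rise (left) and the 12 with the largest fall (right) among called genes, with the log2 value on the x axis, filled red points for the 2 SA arrays and open blue points for the 2 water arrays. Grey lines join the group means, and the genes were chosen among those whose groups do not overlap.

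Enzymes that conjugate SA and auxin were among the strongest risers. UGT76B1, a glucosyltransferase that acts on SA and on N-hydroxypipecolic acid, stood at 9.57 and 9.75 after SA against 4.71 and 4.87 in water. Its rise of 4.87 ± 0.12 (SE, adjusted p = 7.08e-10 by limma) is a 29.3-fold change, and both SA arrays were far above both water arrays. IAGLU, annotated as an indole-3-acetate glucosyltransferase, stood at 5.55 and 5.35 after SA against 2.77 and 2.65 in water (2.74 ± 0.12, adjusted p = 4.68e-08). GH3.3, which joins auxin to amino acids, stood at 7.69 and 7.66 after SA against 3.37 and 3.05 in water (4.47 ± 0.14, adjusted p = 3.52e-09). Of the 12 GH3 and Aux/IAA genes measured, GH3.3 stood alone in size: IAA18, an auxin-signalling repressor, rose by 0.64, and WES1 (GH3.5), which can conjugate both auxin and SA, fell by 0.50. The calls of IAA18 and WES1 were lost without 1 array (up to adjusted p = 0.0857 without water replicate 2 for IAA18 and 0.182 without SA replicate 1 for WES1).

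The family of UDP-glycosyltransferases, which attach sugars to hormones, defence compounds and foreign molecules, had 52 measured members, of which 11 were higher and 2 lower. That is 21.2% higher against 8.67% over all genes, while the family's median of 0.12 lay close to the 0.03 of all genes. UGT73D1 stood at 6.99 and 7.06 after SA against 4.66 and 4.81 in water, and UGT73B4 at 3.35 and 3.3 against 0.98 and 1.5. Their rises were 2.29 and 2.08. GT72B1 (UGT72B1), which glucosylates foreign phenols, rose by 1.39 and UGT87A2 by 1.31. UGT84A3, a sinapate glucosyltransferase, rose by 0.85, UGT76E12 by 0.76 and UGT73C7 by 0.74. UGT73B5 was 0.89 higher and UGT71C5 0.37 higher, yet both lost the call without 1 array (adjusted p up to 0.122 without water replicate 2 and up to 0.200 without water replicate 1). UGT88A1 fell by 0.82 and UGT78D1, a flavonol rhamnosyltransferase, by 0.68, the last not past the threshold without water replicate 2 (adjusted p = 0.102). UGT74F1, a further SA glucosyltransferase, was 0.36 higher without passing (adjusted p = 0.0528), as was the SA methyltransferase BSMT1 (0.25, adjusted p = 0.160).

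Few of the classic SA genes could be read by name, where measured means read by a probe set with exactly 1 annotated gene. For 8730 probe sets the annotation gave no gene, so genes missing here may still be on the array. Of 11 listed genes of SA synthesis and its regulation 1 was measured, the lipase-like SAG101, a partner of the defence regulator EDS1, and it was lower: 3.19 and 3.25 after SA against 4.28 and 4.34 in water. Of 22 genes of SA signalling and response 2 were measured. GRX480, a glutaredoxin that binds TGA factors, stood at 8.02 and 7.93 after SA against 6.87 and 6.67 in water and rose by 1.21 ± 0.12 (SE, adjusted p = 2.31e-05 by limma). WRKY53, a WRKY transcription factor, was 0.26 higher without passing (adjusted p = 0.171). Of the 7 WRKY factors found by name 1 was called higher (14.3% against 8.67% over all genes). It was WRKY6, known from senescence and defence (6.09 and 6.12 after SA against 5.12 and 5.19 in water). Lists for other hormones were as thin: of 30 jasmonate genes 3 were measured, of 11 ethylene genes 1 and of 13 abscisic acid genes 2, and among these COR47, a dehydrin, fell by 1.55 and PDF1.2b by 0.43.

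The study had designed qPCR primers for 18 transcripts, of which 7 were among the genes here. The primers of the 5 that passed are printed because they mark the stretch by which these transcripts can be measured apart from the array. Each runs from its 5′ end to its 3′ end, in lower case throughout.
GRX480 forward: cagggaaacggcgagagagt
GRX480 reverse: gcagcctcctcaccacatga
AT1G05700 forward: tggcgaaatcggagaacaaat
AT1G05700 reverse: actgttccaaaccctcctttgc
MSRB9 forward: caaactgttcgacgacggaatc
MSRB9 reverse: gaaggaaggccagccacaac
AT5G38700 forward: gcatctcaaagccctaaatcatca
AT5G38700 reverse: aaatattggcgtctcgtcgaaag
AT1G66100 forward: gacattctcgaaaacacaggtgatg
AT1G66100 reverse: catcggagttctggagaatggtt

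Of these 5, GRX480 and AT1G05700 were higher after SA and the other 3 lower. AT1G05700 stood at 4.04 and 4.21 after SA against 2.60 and 2.49 in water, and MSRB9, a methionine sulfoxide reductase, at 5.85 and 5.74 against 7.49 and 7.55. AT5G38700 stood at 1.45 and 1.19 after SA against 4.18 and 4.29 in water, and AT1G66100 at 2.87 and 2.47 against 5.38 and 5.40. The groups lay apart in each, and the sizes of the changes ran from 1.21 for GRX480 to 2.92 for AT5G38700. The remaining 2, AT4G23780 and AT3G26130, lay below 0.20 on every Col-0 array and passed in neither direction.

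Genes of energy metabolism differed by organelle. Among called genes, those of mitochondrial respiration were nearly all higher and those of photosynthesis nearly all lower after SA, and the called genes of the organelles' own genomes were divided in the same way. Of 16 genes of the mitochondrial genome 11 were higher and none lower, or 68.8% against 8.67% over all genes. Their median change was 0.93. These 16 were gathered by symbol and the plastid genes by annotated chromosome, so other mitochondrial genes may be left out. Of 69 genes of the plastid genome 2 were higher and 21 lower, or 30.4% lower against 11.3%, and the median change was -0.28. In 37 of the 69 both SA arrays lay below both water arrays and in 9 both lay above. The like share over all genes was not counted, so these numbers have no background beside them.

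In the mitochondrial genome, nad6, a subunit of respiratory complex I, changed most, at 3.70 and 3.82 after SA against 1.3 and 1.26 in water (2.48 ± 0.12 SE, adjusted p = 6.50e-08 by limma). The gene ccb452, for cytochrome c maturation, rose by 1.94, and the complex I genes nad9, nad5, nad1, nad4L and nad4 rose by 1.78, 1.73, 1.46, 1.13 and 0.70. Of the subunits of cytochrome c oxidase, cox2 stood at 4.26 and 4.13 after SA against 2.63 and 2.5 in water, and cox1 at 5.43 and 5.59 against 4.83 and 4.61. The groups did not overlap in any of these. The other 2 calls were orfX (1.07) and ccb203 (0.67), while matR, ccb206, ccb382, nad2 and nad7 passed in neither direction. The count was 11 or 12 without each Col-0 array in turn. Of 6 further probe sets of nad1, 4 were higher as well, and their changes ran from 0.13 to 1.83. Chromosome 2 carries a copy of much of the mitochondrial genome, and the probe sets of nad6, nad5, ccb452 and orfX are of the type that reads several similar transcripts, so the source of their signal cannot be told apart. At loci in that copy, AT2G07722 rose by 2.42 and AT2G07741 by 1.79. Smaller rises were read at loci of nearby number, 0.40 for AT2G07673, 0.61 for AT2G07674 and 0.69 for AT2G07751.

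In the plastid genome, the large Rubisco subunit rbcL stood at 4.82 and 5.18 after SA against 6.24 and 6.23 in water (-1.24 ± 0.14 SE, adjusted p = 5.13e-05 by limma). The ribosomal protein gene rpl33 fell by 1.28, the photosystem II genes psbC, psbD and psbH by 1.08, 0.97 and 1.36, and atpB, a subunit of ATP synthase, by 0.98. The fall of psaJ of photosystem I (1.36) rested unevenly on the arrays, with 3.53 and 4.86 after SA against 5.80 and 5.31 in water, and did not pass without water replicate 1 (adjusted p = 0.125). The 2 plastid genes that were higher were rpl20 (0.63) and psbJ (0.38), and both lost the call without 1 array (adjusted p up to 0.0693 without water replicate 2 and 0.188 without water replicate 1). The count of 21 lower genes was 7 without water replicate 2 and 16 or 17 without each of the other Col-0 arrays. The standard labelling primes RNA at its poly-A tail, which organelle transcripts mostly lack, and its part in these values was not tested.

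**Figure D3:**
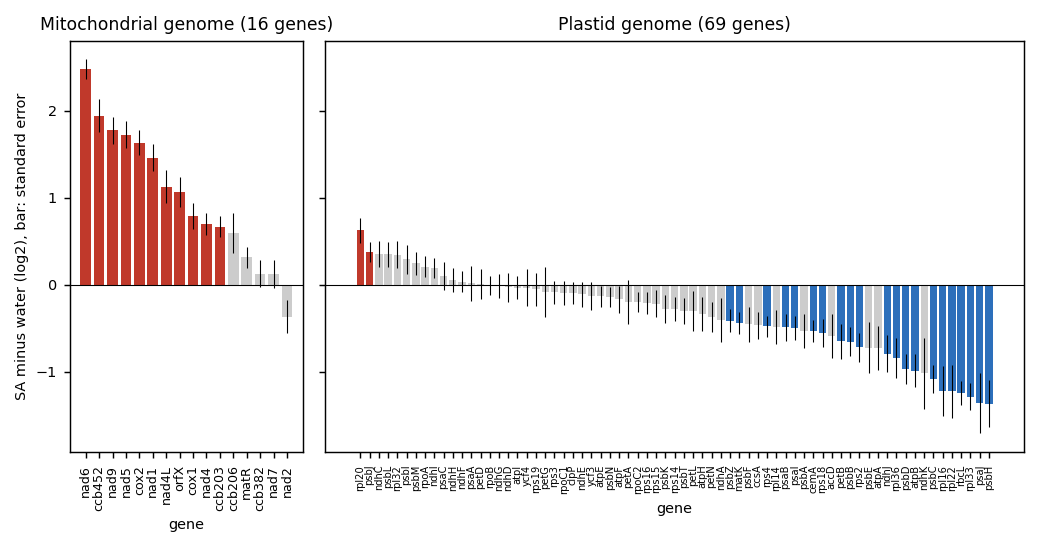
SA minus water (log2) for genes of the mitochondrial genome gathered by symbol (left, 16 genes) and of the plastid genome (right, 69 genes). Genes are sorted by size, with the standard error as a line. Red bars were called higher, blue bars lower and grey bars neither, with 11 red mitochondrial bars and 21 blue plastid bars.

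Of 21 nuclear dehydrogenase, electron transfer and cytochrome c genes of mitochondria, 10 were higher and 1 lower, and 10 passed in neither direction. That is 47.6% higher against 8.67% over all genes, with a median of 0.37. NDB2, an external NAD(P)H dehydrogenase of the inner membrane, stood at 3.86 and 3.80 after SA against 2.1 and 2.26 in water (1.65 ± 0.13 SE, adjusted p = 3.04e-06 by limma). IDH-VI, a subunit of isocitrate dehydrogenase in the tricarboxylic acid cycle, stood at 5.26 and 5.29 after SA against 3.87 and 3.66 in water. Both genes had SA arrays that almost coincided, well above the water arrays. IDH-V rose by 0.97, the succinate dehydrogenase subunits SDH2-1 and SDH1-1 by 1.22 and 0.76, and MAB1, a subunit of pyruvate dehydrogenase, by 0.61. A second probe set of SDH2-1 differed by 0.02 and did not pass (adjusted p = 0.939). Cytochrome c was read by CYTC-2, at 7.14 and 6.96 after SA against 6.04 and 5.93 in water, and by CYTC-1, at 9.03 and 8.89 against 8.10 and 8.13. NDB3 and the electron transfer gene ETFALPHA were 0.46 and 0.49 higher and the leucine-degrading enzyme IVD was 0.44 lower, and these 3 lost their calls without 1 array (adjusted p up to 0.182 and 0.146 without water replicate 1, and 0.121 without SA replicate 1).

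Genes of carbon recovery, organelle division and aldehyde removal also changed. ICL, isocitrate lyase of the glyoxylate cycle that recovers carbon from fat, stood at 4.77 and 4.98 after SA against 2.33 and 2.15 in water, a rise of 2.63. BIGYIN (FIS1A) and FIS1B, which divide mitochondria and peroxisomes, rose by 0.59 and 0.57. Of the 8 aldehyde dehydrogenases measured 4 were higher and 2 lower (50% and 25%, against 8.67% and 11.3% over all genes). ALDH2C4, ALDH6B2 and ALDH7B4 rose by 0.81, 0.69 and 0.67, while ALDH3F1 and ALDH11A3 fell by 1.38 and 1.2. ALDH10A9 was 0.42 higher but not past the threshold without water replicate 2 (adjusted p = 0.239).

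Several autophagy genes were higher. Autophagy delivers cell contents to the vacuole, and ATG8 proteins coat the membranes that enclose the cargo. Of 11 autophagy genes measured 7 were higher and none lower, or 63.6% against 8.67% over all genes, with a median of 0.54. All 7 were ATG8 genes. The list held mostly ATG8 genes, so its share does not speak for autophagy genes in general. ATG8B stood at 7.70 and 7.31 after SA against 5.81 and 5.87 in water (1.67 ± 0.15 SE, adjusted p = 9.82e-06 by limma). ATG8H stood at 7.15 and 7.01 after SA against 6.29 and 6.28 in water, and APG8A (ATG8A) at 7.34 and 7.43 against 6.66 and 6.78. In each the SA arrays lay above the water arrays with a gap several times the difference between replicates. APG8H (ATG8I) rose by 0.67. ATG8D, ATG8E and ATG8G were higher by 0.54, 0.54 and 0.48 and lost their calls without 1 array (adjusted p up to 0.133 without water replicate 2, 0.153 without SA replicate 1 and 0.188 without water replicate 1). The count was then 4 without SA replicate 1 and 5 or 6 without each of the others. ATG8F and ATG8C were 0.31 and 0.24 higher and ATG3, which helps to attach ATG8 to its lipid, 0.13 higher, none past the threshold.

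**Figure D4:**
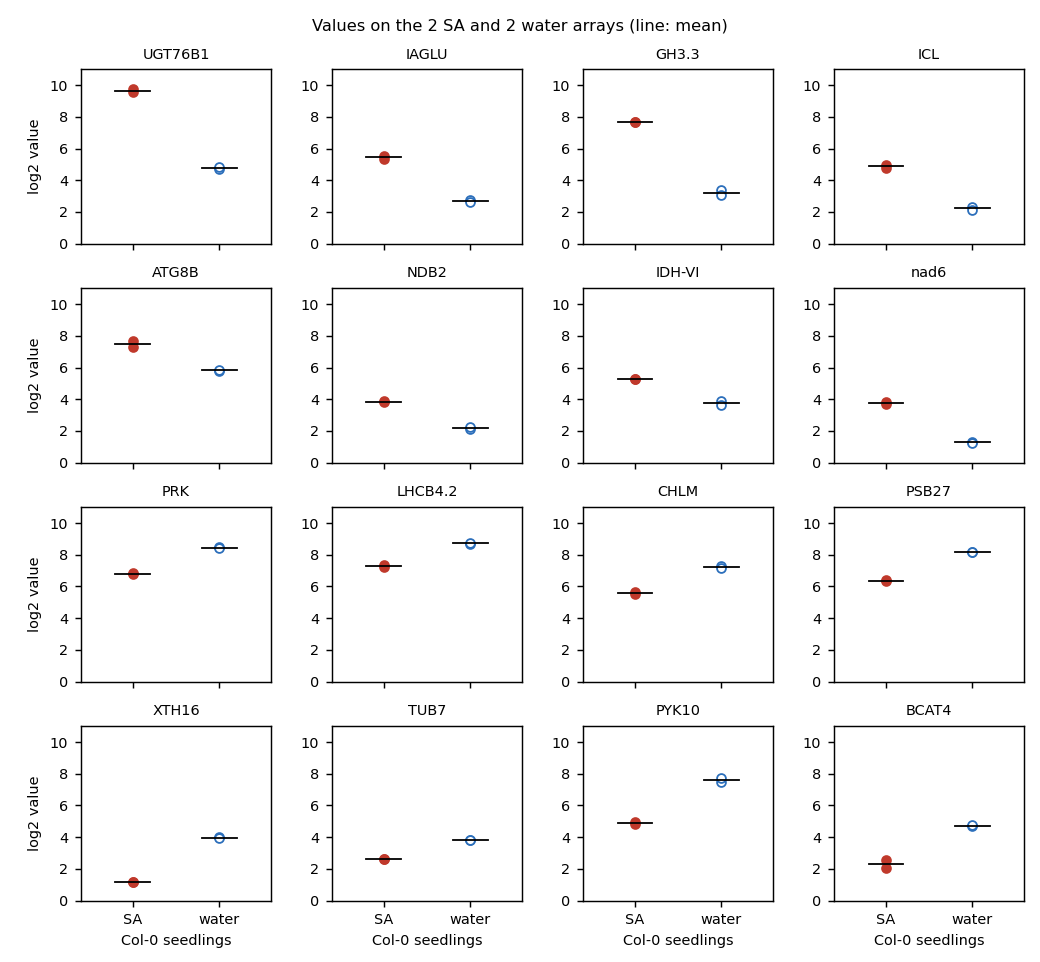
Log2 values of 16 genes on the 2 SA arrays (filled red, left in each panel) and the 2 water arrays (open blue, right), with the mean as a line and a common y axis. The upper 8 genes are those of conjugation, the glyoxylate cycle, autophagy and respiration, all higher after SA, and the lower 8 those of photosynthesis, cell wall, ER bodies and glucosinolates, all lower.

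More photosystem genes were lower than higher. Of 30 genes of the photosystems and their antennae, encoded in the nucleus or the plastid, 17 were lower and 1 higher, or 56.7% lower against 11.3% over all genes, with a median of -0.53. LHCB4.2 and LHCB4.1, chlorophyll-binding proteins of the inner antenna of photosystem II, stood at 7.22 and 7.37 and at 7.59 and 7.88 after SA, against 8.70 and 8.75 and 8.96 and 9.06 in water. PSBY and PSAN, small subunits of photosystems II and I, fell by 1.36 and 1.16, and PSAE-1, of photosystem I, stood at 8.66 and 8.56 after SA against 9.63 and 9.65 in water. PSB27, which helps photosystem II to assemble and to be repaired, fell most, to 6.33 and 6.39 after SA against 8.15 and 8.20 in water. The light-harvesting-like genes LIL3:1 and LIL3:2 fell by 1.27 and 1.00. Of 6 photosystem assembly factors 5 were lower (83.3% against 11.3% over all genes), with LPA2 and HCF101 falling by 1.53 and 1.57. LPA19, LPA66 and PAM68 were lower by 0.56, 0.45 and 0.82, and these 3 lost their calls without 1 array (adjusted p up to 0.0857 without SA replicate 2, and 0.120 and 0.143 without water replicate 1), so that 2 calls were left without water replicate 1. The NADH dehydrogenase-like complex of the thylakoid had 5 of 18 genes lower (27.8% against 11.3% over all genes). They were led by the nuclear subunits NdhL (-1.66) and NdhN (-1.52). NdhS, CRR42 and ndhJ lost their calls without 1 array (adjusted p up to 0.105 without water replicate 1, 0.103 without SA replicate 2 and 0.171 without water replicate 2).

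The enzymes behind the photosystems fell as well. All 4 Calvin cycle and photorespiration genes measured were lower, in the full set of arrays and without each Col-0 array in turn. PRK, phosphoribulokinase, stood at 6.84 and 6.80 after SA against 8.47 and 8.42 in water (-1.63 ± 0.13 SE, adjusted p = 3.87e-06 by limma). RCA, Rubisco activase, stood at 9.44 and 9.55 after SA against 10.61 and 10.55 in water. HPR, hydroxypyruvate reductase of photorespiration, fell by 1.81 and SBPASE, sedoheptulose bisphosphatase, by 1.23. The replicates of each were close and the groups far apart. In chlorophyll and tetrapyrrole synthesis 7 of 10 genes were lower and none higher, or 70% lower against 11.3% over all genes. CHLM, a magnesium protoporphyrin methyltransferase, stood at 5.5 and 5.67 after SA against 7.32 and 7.18 in water. CHLI2, a subunit of magnesium chelatase, fell by 1.44 and PORB, protochlorophyllide reductase, by 1.14. The earlier steps HEME2 and HEME1, uroporphyrinogen decarboxylase, fell by 0.91 and 0.84. HEMA2 and HEMB1, earlier still, were 0.58 and 0.46 lower without holding the call when 1 array was left out (adjusted p up to 0.0855 without SA replicate 1 and 0.182 without SA replicate 2).

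Some genes of proteins that loosen or remodel the cell wall were lower, and others passed in neither direction. Of 29 xyloglucan endotransglucosylase (XTH) and expansin genes 11 were lower, 1 higher and 17 neither, or 37.9% lower against 11.3% over all genes, and the count of 11 held without each array in turn. XTH16 stood at 1.17 and 1.18 after SA against 4.01 and 3.92 in water (-2.80 ± 0.13 SE, adjusted p = 6.78e-08 by limma), and XTH33 at 1.13 and 1.09 against 3.73 and 3.27. Both lay under the array median on the SA arrays. XTH19 and its neighbour XTH18 fell by 2.39 and 1.51, XTH20 by 1.35 and XTH32 by 1.25. The expansin-like genes EXLA3, EXLA2 and EXLA1 fell by 1.90, 1.82 and 1.01, and EXLB1 by 0.91. EXGT-A3 fell by 0.94, and XTH29 was the 1 that rose (0.78). No classical EXPA or EXPB expansin found by name passed. SKU5, a wall and membrane protein of directional root growth, stood at 5.05 and 5.28 after SA against 7.0 and 7.22 in water, and COB, which orients cellulose, fell by 1.06. CSLC04, which makes the xyloglucan backbone, fell by 1.34 among 8 cellulose synthase-like genes with 2 lower and none higher (25% against 11.3% over all genes).

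Tubulin genes and some receptors of wall signals were lower. Of 9 tubulin and actin genes 5 were lower and none higher, or 55.6% lower against 11.3% over all genes. TUB7 stood at 2.63 and 2.65 after SA against 3.84 and 3.79 in water, and TUA6 at 4.32 and 4.79 against 5.49 and 5.53. TUB5 had the largest change of the family (-1.99) with unequal SA arrays, 2.17 and 0.88 after SA against 3.44 and 3.60 in water. TUB6 fell by 1.31, and ACT11 was 0.50 lower but not past the threshold without water replicate 2 (adjusted p = 0.164). Of 4 malectin-type receptor kinases 2 were lower (50% against 11.3% over all genes). ANX1 and ANX2, of pollen tubes, passed in neither direction (0.07 and 0.03 higher). THE1, a receptor kinase that senses wall integrity, stood at 3.97 and 3.96 after SA against 5.02 and 5.22 in water. FER, the related receptor of RALF peptides, was 0.75 lower, with an adjusted p of 0.0514 without water replicate 1. Of 11 RALF-like peptide genes 3 were lower and 1 higher (27.3% and 9.09%, against 11.3% and 8.67% over all genes). RALFL34 fell by 2.00 and RALFL24 and RALFL22 by 1.08 each. RALFL32 was the 1 higher, at 5.63 and 5.61 after SA against 3.92 and 3.84 in water.

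Most measured genes of ER bodies and jacalin-related lectins were lower, as were the few measured of aliphatic glucosinolates. The ER body is a store of beta-glucosidase in Brassicaceae. Of 7 genes of ER bodies and jacalin-related lectins 5 were lower and none higher, or 71.4% lower against 11.3% over all genes. PYK10, the main beta-glucosidase of ER bodies, stood at 4.83 and 4.97 after SA against 7.49 and 7.71 in water (-2.70 ± 0.14 SE, adjusted p = 1.36e-07 by limma). NAI2, needed for ER bodies to form, stood at 4.26 and 4.41 after SA against 6.09 and 6.03 in water. The lectins JAL33 and JAL34, neighbours in the genome, fell by 2.06 and 1.28, and JAL22 was 0.79 lower without holding the call when water replicate 2 was left out (adjusted p = 0.0874). PYK10 also served as a root marker, so a lower share of root RNA and less PYK10 per root cell cannot be told apart. The 3 genes of aliphatic glucosinolates measured were all lower (100% against 11.3% over all genes). BCAT4, the first enzyme of methionine chain elongation, stood at 2.58 and 2.07 after SA against 4.68 and 4.77 in water. The transporters GTR1 and GTR2 fell by 0.84 and 0.56. GTR2 lost its call without any 1 of the 4 arrays (adjusted p up to 0.107). BGLU28, a myrosinase-type beta-glucosidase induced by sulfur shortage, rose by 1.12.

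Small antimicrobial peptides were lower where they changed. Of 15 defensin, LCR and thionin genes 6 were lower and none higher, or 40% lower against 11.3% over all genes, with a median of -0.04. THI2.2, a thionin, stood at 1.1 and 1.62 after SA against 3.07 and 2.86 in water, and the defensin PDF1.4 at 6.88 and 6.57 against 7.82 and 7.90. LCR69 fell by 1.05. PDF2.5, LCR68 and PDF1.2b were lower by 0.59, 0.60 and 0.43 and lost their calls without 1 array (adjusted p up to 0.0545 and 0.122 without SA replicate 2 and 0.302 without water replicate 2). A few other genes with known or annotated parts in defence, chosen after their values were seen, were higher. ECS1 stood at 10.79 and 10.67 after SA against 8.62 and 8.42 in water. CHI (AT2G43570), a chitinase, stood at 6.50 and 6.65 against 4.49 and 4.6. Chitinases were not gathered as a group, so CHI does not speak for others. At nearby loci, AT2G43610 fell by 2.61 and AT2G43620 by 0.84. EFR, the receptor of bacterial elongation factor Tu, was 0.74 higher.

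Several regulators known from fast stress responses were lower after 24 h. ORA47, an AP2/ERF factor of the jasmonate pathway, stood at 4.49 and 4.77 after SA against 7.36 and 7.25 in water (-2.68). STZ (ZAT10), a zinc-finger repressor, fell by 0.68. Of 8 calmodulin-like calcium sensors 4 were lower and 1 higher, or 50% lower against 11.3% over all genes. CML37 and CML41 fell by 1.45 and 1.35 and CML38 by 0.85. CML43 was the 1 higher, at 2.52 and 2.77 after SA against 0.90 and 1.33 in water. Of 9 plant U-box ubiquitin ligases 4 were lower and none higher, or 44.4% lower against 11.3% over all genes. PUB23, which restrains immune signalling together with PUB22, stood at 7.10 and 7.38 after SA against 8.23 and 8.38 in water. PUB19, PUB26 and PUB22 were lower by 0.64, 0.57 and 0.45, and these calls were lost without 1 array (adjusted p up to 0.0530 without SA replicate 1, and 0.109 and 0.197 without water replicate 2). Of the basic helix-loop-helix factors, BHLH101, an iron-deficiency regulator, fell by 1.72. Other factor families lay near or below the shares over all genes (8.67% higher, 11.3% lower): of 22 bZIP factors 4.55% were higher and 13.6% lower, and of 42 AGAMOUS-like MADS factors 4.76% and 2.38%.

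Redox enzymes were divided within families. Among 11 glutathione transferases of the tau class, which conjugate foreign and stress-made molecules, GSTU22 stood at 4.12 and 3.87 after SA against 1.91 and 2.12 in water, while GSTU20 stood at 3.48 and 3.42 against 5.22 and 5.40. GSTU18 and GSTU26 fell by 1.71 and 0.89. GSTU25 was 0.60 higher, not past the threshold without water replicate 1 (adjusted p = 0.121). Of 13 glutaredoxins and thioredoxins 15.4% were higher and 30.8% lower, against 8.67% and 11.3% over all genes. The 2 higher were both glutaredoxins (GRX480 and GRXC2, by 1.21 and 0.96), and the 4 lower were all thioredoxins. Those 4 were ty2, TRXF2, THX and ATHM2, of the chloroplast types, lower by 1.1, 0.90, 0.51 and 0.45, of which ATHM2 lost its call without 1 array (adjusted p up to 0.164, without water replicate 2). Of 5 methionine sulfoxide reductases 3 were lower and 1 higher (60% and 20%, against 11.3% and 8.67% over all genes). MSRB6 and MSRB9 fell by 1.91 and 1.73 and MSRB3 rose by 0.87, while MSRB5 was 0.48 lower and lost its call without 1 array (adjusted p up to 0.170, without water replicate 1).

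Among genes of nitrogen use ASPGB1 and NRT2.5 were higher, and a wider group of transporters changed in both directions. ASPGB1, asparaginase B1, which releases nitrogen from asparagine, stood at 7.81 and 7.99 after SA against 5.19 and 5.18 in water. NRT2.5, a high-affinity nitrate transporter known from nitrogen starvation, stood at 2.73 and 3.31 after SA against 1.19 and 1.02 in water. Of 12 NRT1/PTR and NRT2 transporters, a family that carries nitrate, peptides and glucosinolates, 2 were higher and 4 lower (16.7% and 33.3%, against 8.67% and 11.3% over all genes). AT2G26690 fell by 1.17, GTR1 and GTR2 are described above, and AT1G59740 was 0.63 higher without holding the call when water replicate 2 was left out (adjusted p = 0.0706). Of 16 SWEET sugar transporters 2 were higher and 2 lower, near the shares over all genes (8.67% and 11.3%). SWEET16 and SWEET17, which carry sugar across the vacuole membrane, fell by 1.32 and 0.83. SWEET11, which exports sucrose from leaf cells, and SWEET4 were 0.55 and 0.62 higher and lost their calls without water replicate 2 (adjusted p = 0.0703 and 0.0869). COR47 and LTI30, dehydrins, fell by 1.55 and 0.67 among 11 dehydrin, LEA and cold-regulated genes with 5 lower and 1 higher. These were 45.5% and 9.09%, against 11.3% and 8.67% over all genes.

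**Figure D5:**
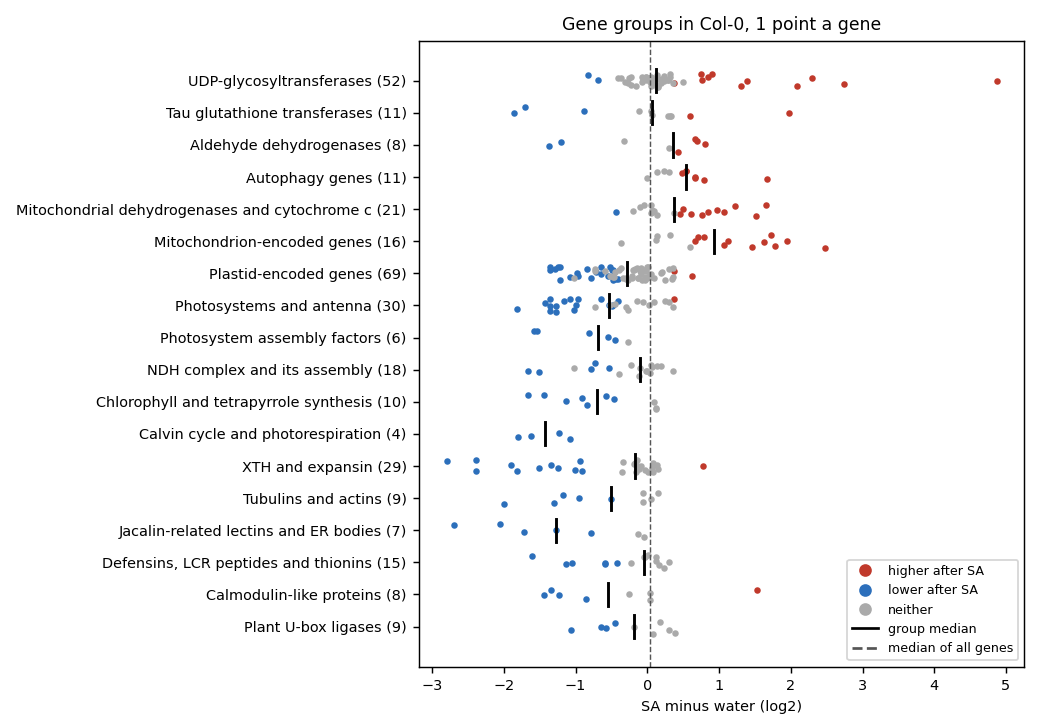
SA minus water (log2) of each measured gene in 18 groups, with the number of genes in parentheses, the group median as a black line and the median of all genes (0.03) as a dashed line. Mitochondrial and autophagy genes lie mostly right of the dashed line, photosynthesis, cell wall and ER body genes left of it, and the groups were chosen with results of these data known.

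In the arrays labelled npr1-1, the same largest changes did not follow those of Col-0. For the 24 genes with the largest rise or fall in Col-0, the effect by the npr1-1 labels differed from that in Col-0 in all 24 (interaction, adjusted p under 0.05 by limma, a call made for 32.0% of all probe sets). UGT76B1 averaged 2.96 on the arrays labelled npr1-1 SA against 8.90 on those labelled npr1-1 water, while GH3.3 averaged 2.91 against 5.18. In both genes the array group labelled npr1-1 water was the higher one, opposite to Col-0. By the labels the sign of the npr1-1 estimate was opposite to Col-0 in 12 of the 12 risers and 11 of the 12 fallers. Some of these estimates were small beside the Col-0 change. Among the risers they ran from -7.30 for AT5G03350 to -0.05 for AT3G29970, and among the fallers from -0.19 for AT2G18210 to 3.96 for AT5G19890. Whether the labels npr1-1 SA and npr1-1 water are exchanged cannot be told from these data, so the direction of the npr1-1 effect is in doubt. With its sign turned, the difference still passed in 22 of the 24 genes. Since the genes were picked for their size in Col-0, a smaller effect elsewhere was favoured by that choice. No label was changed.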

How the data were processed

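Total RNA of complete seedlings was hybridised to Affymetrix ATH1 arrays, 1 per sample. The authors deposited log2 expression values, which the study's methods describe as RMA in affylmGUI and the submitters' notes as Affymetrix Expression Console. No source here says whether a constant was taken off. Means of the 4 groups were fitted over all 8 arrays with limma 3.58.1 in R 4.3.3 (4 residual degrees of freedom, prior 7.29), as Col-0 SA minus Col-0 water, without trend. P-values were adjusted by Benjamini-Hochberg over 22746 probe sets. The fit was tested on simulated data. Gene names came from the platform annotation and a RefSeq gene table, which held 13436 of the 13513 probe sets with 1 gene.

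Described are the 12 largest called rises and falls, up to 4 members of each gene list with the smallest adjusted p, transcripts with primers in the study, and further genes chosen after their values were seen. The members and lists were chosen with earlier results of these data known. Alternatives were the replicate block, Col-0 arrays alone, quantile normalization, centring, a filter on dim probe sets, trended or no moderation, a stricter threshold, counting probe sets, each Col-0 array left out and, added after seeing the data, the npr1-1 effect with its sign turned. The number of arrays limits the precision.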

Additional observations from a re-analysis of the deposited data

Results flagged for a closer look

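The 24 largest changes of Col-0 all drew attention because the effect of SA by the npr1-1 labels differed from that in Col-0 by a test of the difference itself (limma, all 8 arrays, adjusted p from 3.85e-12 to 5.29e-06). The value in each parenthesis is the npr1-1 effect minus the Col-0 effect on the log2 scale. Among the 12 genes that rose in Col-0 it was negative, for AT3G28510 (-12.13), AT5G03350 (-12.55), AT3G29970 (-5.03), UGT76B1 (-10.81), AT2G30660 (-5.12) and AT5G45180 (-5.58). It was likewise negative for GH3.3 (-6.74), AT1G19960 (-9.07), AT3G11370 (-4.27), AT5G41280 (-4.6), AT4G10270 (-4.07) and AT3G22240 (-7.14).

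Among the 12 genes that fell in Col-0 the difference was positive, for AT4G22212 (6.8), AT1G29660 (5.04), AT2G18210 (3.1), AT1G09310 (4.43), AT2G10940 (4.52) and AT4G22610 (3.82). It was likewise positive for AT5G38700 (3.53), AT2G29290 (5.34), AT5G28630 (3.82), XTH16 (4.11), AT4G23670 (3.49) and AT5G19890 (6.74). The genes were chosen by their effect in Col-0. For the npr1-1 arrays the direction rests on labels that may be exchanged. With the sign of the npr1-1 effect turned, an alternative chosen after seeing the data, the difference was between -4.92 and 2.06 for the risers (AT3G28510 1.39, UGT76B1 1.06) and between -1.19 and 3.49 for the fallers, and passed in 11 of 12 each.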

How the results depend on the processing

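Over 12 alternatives and 268 named genes, 3206 values were computed. None of the 236 called genes changed sign, 4 of the 32 others did (ANX2, ccb382, nad7 and THI2.1), and 78 of the called genes lost the call under at least 1 alternative, 55 of them without 1 array. The 12 largest rises and 12 largest falls kept their call and direction under all 12. Without moderation of the variances, 1286 probe sets were higher and 1710 lower, or 642 and 822 genes. At an adjusted p of at most 0.01, 1487 probe sets were higher and 2126 lower, or 725 and 1020 genes. Counting all probe sets in place of genes gave 125 higher and 110 lower by at least 2, and 591 and 1046 by at least 1.

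Without each Col-0 array in turn, 1602 to 1941 probe sets were higher and 2215 to 2482 lower, or 810 to 997 and 1086 to 1221 genes. Changes of at least 2 numbered 57 to 63 higher and 53 to 65 lower, those of at least 1 numbered 275 to 322 and 470 to 506, and the difference from the npr1-1 arrays passed for 24 of 24 genes each time. A lone array was assumed to vary like the other groups.

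The labels do not say whether same-numbered samples were paired. Same-numbered SA and water arrays of Col-0 deviated together at r = 0.00, which cannot settle how they were grown or handled. With the replicate number as a block, 2197 probe sets were higher and 2953 lower, and PUB22 and UGT71C5 lost their calls (adjusted p = 0.0514 and 0.0682). The difference from the npr1-1 arrays could not be computed on the Col-0 arrays alone. Quantile normalization gave 2659 probe sets higher and 2814 lower, and centring 2600 and 2783. Of the called genes 49.4% and 49.3% were then higher, against 43.4%.

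Without moderation, lower plastid genes numbered 4 in place of 21, lower tubulins and actins 1 in place of 5, lower U-box ligases 1 in place of 4, and higher autophagy genes 4 in place of 7.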

Other observations

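Genes that lie next to each other were sometimes called together. Among 5845 pairs of adjacent measured genes, the first gene was higher in 575, and in 65 of these (11.3%) the next gene was higher too, against 9.46% of all second genes. The first was lower in 719 pairs and the next also lower in 122 (17.0%), against 12.8% of all second genes. AT1G29660 and AT1G29670 (-3.62 and -2.32), and AT2G30660 and AT2G30670 (4.69 and 2.29), were such pairs. No test of these shares was made.

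Over all genes 8.67% were higher and 11.3% lower. Of heat shock proteins and co-chaperones 4 of 12 were higher (33.3%) and 1 lower (8.33%). Of 23 trichome birefringence-like genes, which acetylate wall polymers, 5 were lower (21.7%) and none higher. Near the shares over all genes were 29 serine carboxypeptidase-like genes (3.45% higher and 13.8% lower) and 22 named cytochromes P450 (13.6% and 18.2%).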
